A study of Rattus norvegicus with 4 samples.

Results

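The neurotrophins brain-derived neurotrophic factor (gene Bdnf) and neurotrophin-3 (Ntf3), and the receptor genes Ntrk2, Ntrk3 and Ngfr, were followed in the stroke-side cortex of rats given estradiol or placebo. Members were all non-control probe sets whose single gene symbol in the platform annotation is one of these 5 genes. This gave 15 of 8740 probe sets: 7 for Bdnf and 2 each for Ntf3, Ntrk2, Ntrk3 and Ngfr. All animals were ovariectomised female rats in which the middle cerebral artery was closed for 2 h from within the vessel and then reopened. One group had received 17beta-estradiol replacement and the other placebo. Each group has 2 Affymetrix RG-U34A arrays, here called estradiol 1 and 2 and placebo 1 and 2, and each array carries cortical RNA pooled from 3 animals, with separate animals in each pool per the series text. Strain, age and dose are not given in the sources used here. The array codes carry a 6, and the series text names 6 and 24 h after the occlusion, but no label ties these arrays to a time in words. Sham and contralateral tissue were not analysed here.

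Neurotrophins are secreted growth factors, made as larger precursors and cut to the mature form, that support the survival and synapses of neurons. Mature BDNF acts mainly on TrkB, the receptor tyrosine kinase encoded by Ntrk2, and NT-3 on TrkC, encoded by Ntrk3. The p75 receptor encoded by Ngfr binds all mature neurotrophins and, with sortilin, their uncut precursors. In the cortex, transcription of Bdnf follows neuronal activity and calcium entry, and TrkB also exists in short forms without the kinase.

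Values are linear intensities as deposited. Background was read on each array from the brightest of 23 foreign controls, probe sets against transcripts of bacteria, yeast or mouse, which stood at 33.9, 37.8, 37.8 and 30.1 on estradiol 1, estradiol 2, placebo 1 and placebo 2. Of the 15 probe sets, 7 lay above this level on all 4 arrays, and 3 lay at or below it on all 4. The mean of 9 probe sets over the arrays reached the filter of 37.5 for testing, at least 1 for each gene, and no tested probe set was at background on both arrays of a group. Intensities of different probe sets are not comparable as transcript amounts. Names ending in s_at, i_at or f_at mark probe sets that are not built only from probes unique to 1 transcript.

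No neurotrophin or receptor probe set passed the test between treatments. With limma and Benjamini-Hochberg adjustment over all probe sets, 0 of the 9 were called, at an adjusted p of 0.998 for each, against a background of 0% (0 of 5244 called). At an unadjusted p below 0.05 there was 1 of 9, a Bdnf probe set with lower values under estradiol, beside 3.07% of all tested probe sets, or 1.33% in that direction. The values of both treatments did not overlap for 3 of the 9, all lower with estradiol, and for 29.7% of all tested probe sets, or 14.3% in that direction. The median difference of the 9 was -0.17 on the log2(intensity + 16) scale, the scale of all differences here, beside 0.01 for all tested probe sets. It was -0.38 without placebo 2, -0.23 without estradiol 1, -0.12 without placebo 1 and -0.11 without estradiol 2, and 4 of the 9 are probe sets of Bdnf. For 1 probe set taken alone, 2 against 2 pools allow no two-sided exact permutation p below 0.333.

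**Figure D1:**
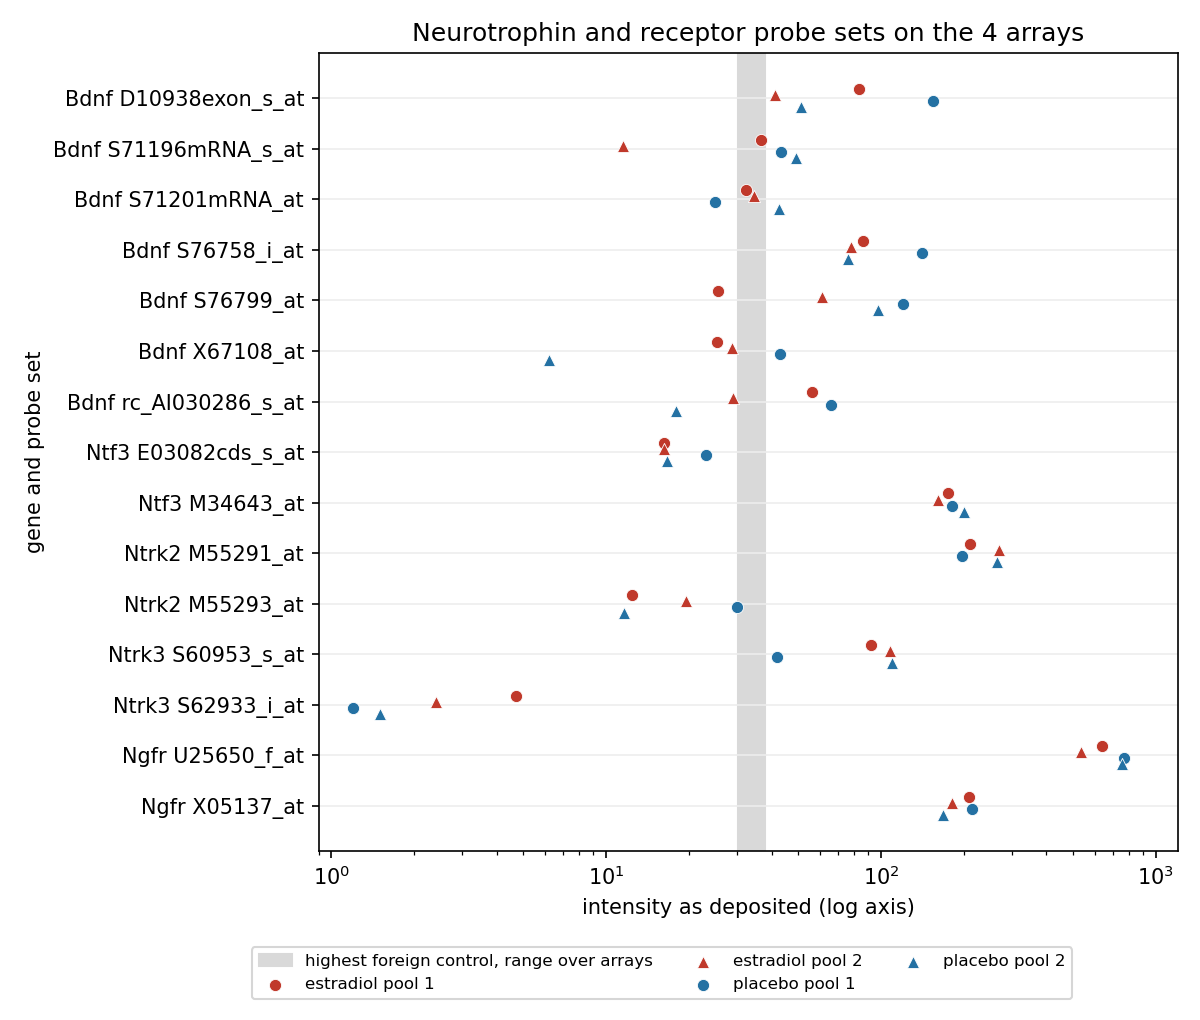
Intensity of each of the 15 probe sets (vertical axis) on each of the 4 arrays, on a logarithmic horizontal axis, with the range of the brightest foreign control, 30.1 to 37.8, in grey. Circles are pool 1 and triangles pool 2; estradiol is red and placebo blue. For Bdnf S76799_at both red points lie left of both blue points, while for Ntrk2 M55291_at and Ngfr X05137_at the colours mix.

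Bdnf encodes the main activity-dependent neurotrophin of the cortex, and its probe sets did not give 1 common difference between treatments. Of the 7 probe sets, 4 had lower and 3 higher mean log2 values with estradiol, and of the 4 that were tested, 3 were lower and 1 higher. The 4 lower ones were above background on 3 or 4 arrays, and the 3 higher ones on only 1 or 2. Of the higher ones, S71201mRNA_at had a log2 difference of 0.01. In all 4 tested probe sets the brightest array was placebo 1, and the share of all tested probe sets brightest there was not counted. In bulk tissue, fewer cells expressing a gene and less RNA per cell cannot be told apart.

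S76799_at had the widest difference. It gave 25.6 and 60.9 under estradiol against 120.8 and 97.9 under placebo. Both placebo pools were brighter than both estradiol pools, and estradiol 1 was below its background. The means were 43.2 ± 25.0 (SD, n = 2) and 109.4 ± 16.2 (SD, n = 2). The log2 difference was -1.14 ± 0.35 (SE; 95% interval -1.96 to -0.32), with an unadjusted p of 0.0128 and an adjusted p of 0.998 in limma. Without estradiol 1 it was -0.70, without estradiol 2 -1.59, without placebo 1 -1.01 and without placebo 2 -1.27. With an offset of 64 it was -0.71, and with an offset of 1 it was -1.44.

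D10938exon_s_at gave 83.4 and 41.1 under estradiol against 155.1 and 51.1 under placebo. Pool 1 was the brighter pool in both treatments, and the groups overlapped. Its log2 difference was -0.51 ± 0.48 (SE; 95% interval -1.61 to 0.60). The sign came from placebo 1, without which the difference was 0.17. The difference was -1.18 without placebo 2, -0.91 without estradiol 1 and -0.11 without estradiol 2.

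S76758_i_at gave 86.4 and 77.9 under estradiol against 141.1 and 75.7 under placebo, so 1 placebo array was high and the other 3 arrays were close together. Its log2 difference of -0.29 ± 0.31 (SE) was 0.10 without placebo 1 and -0.68 without placebo 2. The 1 tested Bdnf probe set with a positive difference, rc_AI030286_s_at, gave 56.3 and 29.0 under estradiol against 66.1 and 17.9 under placebo. Pool 2 of both treatments lay below background there. Its log2 difference of 0.11 ± 0.50 (SE) was 0.75 without placebo 1, 0.45 without estradiol 2, -0.23 without estradiol 1 and -0.53 without placebo 2.

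The other Bdnf probe sets had means under the filter. S71196mRNA_s_at gave 36.5 and 11.5 under estradiol against 43.2 and 49.2 under placebo, without overlap, and lay above background on 3 arrays. On estradiol 1 it was close to the background of 33.9. The 29.7% without overlap given above covers tested probe sets only. Fitted with no intensity filter in limma, S71196mRNA_s_at had a log2 difference of -0.71 ± 0.40 (SE), an unadjusted p of 0.121 and an adjusted p of 0.999. S71201mRNA_at gave 32.3 and 34.5 under estradiol against 25.0 and 42.7 under placebo, and X67108_at at 25.4 and 28.8 against 43.0 and 6.2. Both were above background on 1 array, a placebo array in each case, and the groups overlapped.

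Bdnf is transcribed from several start sites, each joined to a shared coding exon. The annotation does not pair the probe sets with start sites. RefSeq windows of the 250 bases upstream of annotated starts (assembly GRCr8) were available for 6 Bdnf starts and 3 Ntf3 starts, 2 of the Bdnf windows overlapping each other and 2 of the Ntf3 windows being almost the same. Ntrk2, Ntrk3 and Ngfr had no entry. The Bdnf window shown is the one holding the letters TCACGTCA, a variant of the cyclic AMP response element through which neuronal activity is known to act on this gene. Capitals mark this match, which begins 38 bases before the start:
Bdnf upstream window, GRCr8 chr3:116637608-116637857, plus strand: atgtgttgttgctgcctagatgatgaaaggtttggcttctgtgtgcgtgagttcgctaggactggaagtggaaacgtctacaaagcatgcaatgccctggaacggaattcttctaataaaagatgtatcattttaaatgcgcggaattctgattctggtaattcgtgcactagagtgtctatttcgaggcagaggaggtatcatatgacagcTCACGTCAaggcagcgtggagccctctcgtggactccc

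On both strands, TCACGTCA was found in 1 of 6 Bdnf windows, 0 of 3 Ntf3 windows and 0.35% of 33469 RefSeq windows of the same length. TCACGTCA was searched for because it is known from Bdnf, so its match there was fixed beforehand and is no sign of enrichment. The shorter TGACG, which the longer match contains on the other strand, was in 1 of 6 Bdnf windows and in 18.2% of all windows. The palindrome TGACGTCA was in 0 of 9 and 1.59%. The palindromic estrogen response element was in 0 of the 9 windows and 0.0239% of all windows, and its arm GGTCA was in 2 of 6 Bdnf windows, 0 of 3 Ntf3 windows and 35.4% of all windows. These are matches of letters, and the arrays do not measure binding.

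Ntf3 encodes NT-3, the preferred ligand of TrkC. Its brighter probe set M34643_at was the steadiest of the tested members, with a range over the 4 arrays of 0.28 on the log2 scale against a median of 0.54 for all tested probe sets. It gave 175.3 and 162.0 under estradiol against 182.2 and 200.6 under placebo. Both estradiol pools lay below both placebo pools, by a small margin. The log2 difference was -0.17 ± 0.21 (SE; 95% interval -0.66 to 0.33), and between -0.23 and -0.10 with 1 array left out. The other probe set, E03082cds_s_at, stood at 16.3, 16.2, 23.2 and 16.6 and was at background on every array.

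Ntrk2, which encodes TrkB, did not differ between treatments beyond the spread between pools. M55291_at gave 211.0 and 268.7 under estradiol against 196.9 and 265.0 under placebo. Pool 2 was the brighter pool in both treatments, and the groups overlapped. The means were 239.8 ± 40.8 (SD, n = 2) and 230.9 ± 48.2 (SD, n = 2), and the log2 difference was 0.06 ± 0.24 (SE; 95% interval -0.51 to 0.62). It was negative without estradiol 2 (-0.11) and without placebo 1 (-0.14). M55293_at stood at 12.4, 19.5, 30.0 and 11.6, at background throughout. The annotation does not say which Ntrk2 probe set reads full-length or kinase-free TrkB.

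Ntrk3, which encodes TrkC, had 1 array apart from the others. S60953_s_at gave 92.3 and 108.3 under estradiol against 41.8 and 110.1 under placebo. Placebo 2 was the brightest array and placebo 1 the dimmest, so the groups overlapped. The log2 difference was 0.44 ± 0.38 (SE; 95% interval -0.44 to 1.33), the most positive among the tested members. It was -0.12 without placebo 1 and 1.01 without placebo 2. S62933_i_at stood at 4.7, 2.4, 1.2 and 1.5, far under background, where values have no order.

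Ngfr encodes p75, the shared neurotrophin receptor that can also signal cell death, and its probe sets gave different values. U25650_f_at gave 639.2 and 535.1 under estradiol against 765.0 and 754.4 under placebo. Both estradiol pools lay below both placebo pools, and the means were 587 ± 73.6 (SD, n = 2) and 759.7 ± 7.50 (SD, n = 2). The log2 difference was -0.37 ± 0.20 (SE; 95% interval -0.83 to 0.10), with an unadjusted p of 0.104 and an adjusted p of 0.998 in limma. It kept its sign with each array left out in turn, between -0.49 without estradiol 1 and -0.24 without estradiol 2. X05137_at gave 209.7 and 182.0 under estradiol against 214.8 and 168.0 under placebo. Here the estradiol values lay between the placebo values, and the log2 difference was 0.04 ± 0.23 (SE; 95% interval -0.50 to 0.57). It was -0.06 without estradiol 1 and -0.13 without placebo 2.

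**Figure D2:**
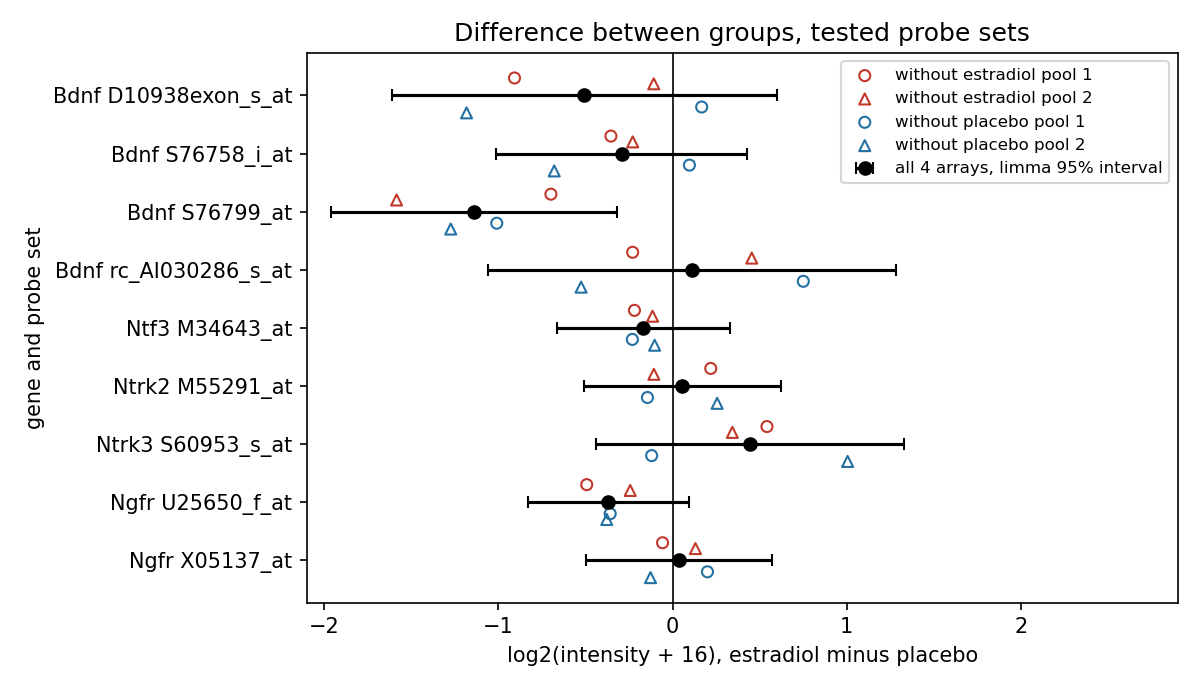
Estradiol minus placebo on the log2(intensity + 16) scale (horizontal axis) for the 9 tested probe sets (vertical axis). Black points with bars are the limma estimate and its 95% interval, and open symbols are the estimates with 1 array left out, red for estradiol and blue for placebo arrays. The interval of Bdnf S76799_at, -1.96 to -0.32, lies below 0 before adjustment for multiple testing, and the other 8 include 0.

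With 1 array left out, 6 of the 9 tested probe sets changed sign under at least 1 of the 4 omissions. The 3 that kept their sign were Bdnf S76799_at, Ntf3 M34643_at and Ngfr U25650_f_at, the 3 whose groups did not overlap and whose sign therefore cannot change when 1 array is omitted. The log2 range over the 4 arrays had a median of 0.78 in these 9 and of 0.54 in all tested probe sets, and it ran from 0.28 for Ntf3 to 1.72 for Bdnf S76799_at.

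Within treatments, 3 of the 4 tested Bdnf probe sets were brighter in pool 1 than in pool 2 of both groups, as were both Ngfr probe sets. This held for 5 of the 9 tested members and for 24.3% of all tested probe sets. The difference of pool 1 from pool 2 was 0.80 with estradiol and 1.35 with placebo for Bdnf D10938exon_s_at, and 0.68 and 1.28 for rc_AI030286_s_at. S76758_i_at gave 0.13 and 0.78, whereas S76799_at gave -0.89 and 0.26, with opposite signs. Ntrk2 M55291_at had -0.33 and -0.40 and Ntrk3 S60953_s_at -0.20 and -1.13.

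Activity- and BDNF-regulated genes, a list of immediate early and synaptic genes chosen with earlier results known, were given beside this. Of 15 tested, 10 were brighter in pool 1 of both treatments, with a median difference between pools of 1.19 with estradiol and 1.11 with placebo. Egr1, an activity-induced transcription factor gene, gave 5842 and 1324 under estradiol against 5858 and 1677 under placebo. Arc, which encodes a synaptic protein induced by activity, gave 1883 and 817 under estradiol against 1819 and 974.9 under placebo. In both genes the pools of each treatment differed more than the treatments did. Oligodendrocyte markers were brighter in pool 1 of both treatments in 5 of 5 tested genes, with medians of 0.32 and 0.58 and sums of 16351 and 12394 under estradiol against 20388 and 13094 under placebo. The part of these pool differences in the Bdnf values was not tested.

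**Figure D3:**
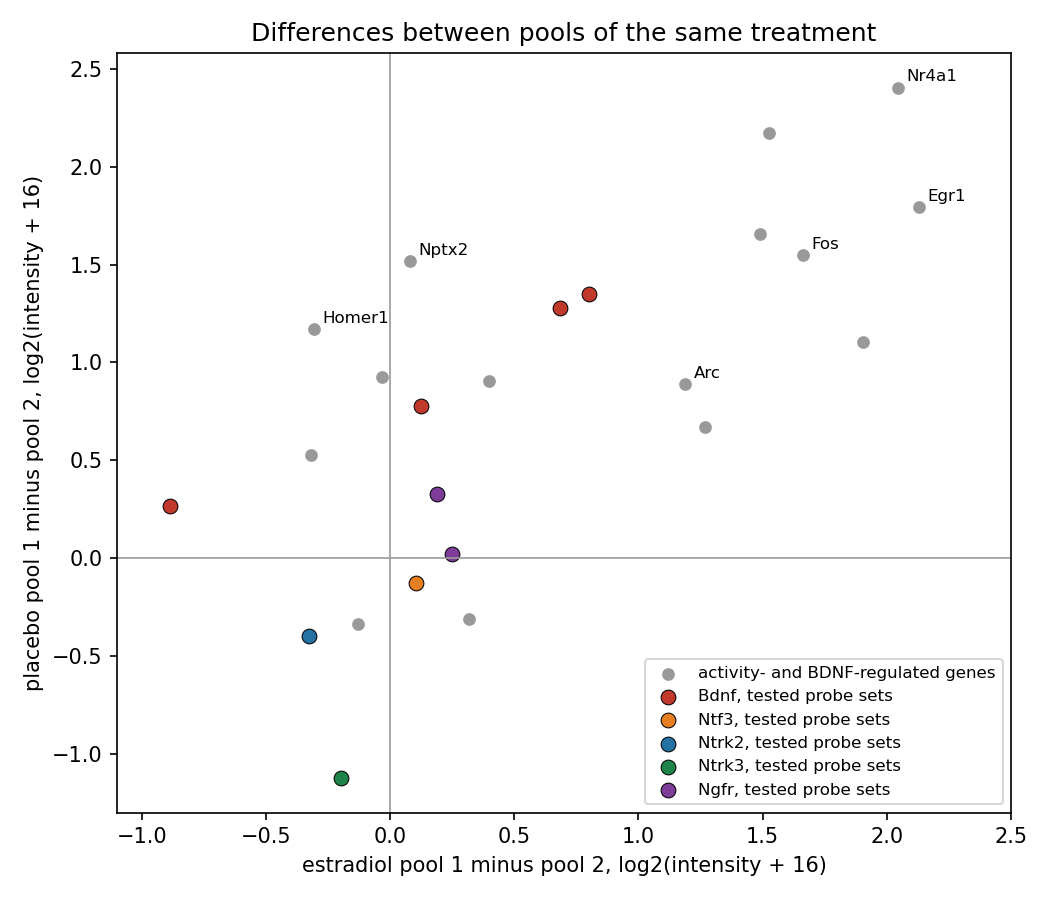
Pool 1 minus pool 2 on the log2(intensity + 16) scale, in estradiol (horizontal axis) and placebo (vertical axis), for the 9 tested members (coloured) and 15 activity- and BDNF-regulated genes (grey). Of the 4 red Bdnf points, 3 lie in the upper right with 10 of the grey points, and the Ntrk2 and Ntrk3 points lie in the lower left.

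Other genes of the neurotrophin pathway also gave no call, with 0 higher and 0 lower in each of 4 lists in limma after adjustment over all probe sets. Each gene was represented by its tested probe set of highest mean. Of 3181 genes tested in this way the median log2 difference was 0.01, and 30.1% had groups that did not overlap.

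Among other neurotrophins, receptors and co-receptors, 3 of 14 listed gene symbols had probe sets and 2 were tested, with a median of -0.08. It was 0.08 without estradiol 1, 0.03 without placebo 2, -0.23 without estradiol 2, -0.19 without placebo 1 and 0.07 with no filter. Sort1 encodes sortilin, the partner of p75 in binding uncut neurotrophins. It gave 42.3 and 72.6 under estradiol against 82.2 and 76.9 under placebo, a log2 difference of -0.41 that was -0.11 without estradiol 1. Bex3, whose protein binds p75 and which is also listed under its older symbol Ngfrap1, had 0.26, and -0.00052 without placebo 1. The probe sets of Ntf4, which encodes neurotrophin-4, another TrkB ligand, were at background on all arrays.

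Genes of precursor cutting, 8 tested of 13 listed, had 3 values above and 5 below 0 and a median of -0.01, or 0.08 without estradiol 2 and 0.12 without placebo 1. The proprotein convertase gene Furin had -0.12. Plat encodes tissue plasminogen activator, which makes the plasmin that cuts pro-BDNF. It gave 394.1 and 256.3 under estradiol against 354.5 and 129.3 under placebo, a log2 difference of 0.53 ± 0.43 (SE) that was -0.15 without placebo 2. Mmp7, a matrix metalloprotease gene, had the lowest value, -0.26 ± 0.36 (SE), and -0.01 without estradiol 2.

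Of 43 listed genes of Trk signalling, 19 were tested, with 6 values above and 13 below 0 and a median of -0.07, or -0.13 without placebo 2 and -0.0057 without estradiol 2. Groups did not overlap for 7 of the 19, or 36.8%, beside 30.1% of all genes tested. Among these 7, only Akt2 was higher with estradiol. The kinase gene Akt2 was highest at 0.45 ± 0.27 (SE), with 77.1 and 74.6 against 49.1 and 53.5, while Akt1 had -0.24. Sh2b2, an adaptor gene, was lowest at -0.37 ± 0.25 (SE). Among the relays downstream of Trk receptors, Shc3 had -0.15, Grb2 0.09, Plcg1 -0.15, Map2k1 0.03 and Map2k2 -0.33. The standard errors of these 5 lay between 0.20 and 0.26, and none of the 5 passed the test.

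The 15 activity- and BDNF-regulated genes had 7 values above and 8 below 0 and a median of -0.10. That median turned with single arrays: it was 0.53 without estradiol 2, 0.59 without placebo 1, -0.29 without estradiol 1 and -0.55 without placebo 2, and it was 0.18 when all tested probe sets of a gene were averaged. Nr4a1, a nuclear receptor gene, was highest at 0.51 ± 0.83 (SE), with 1557 and 364.6 against 1233 and 219.8. Without estradiol 1 it was -0.51 and without placebo 2 it was -0.69. Crem, a transcription factor gene of the cyclic AMP pathway, was lowest at -0.50 ± 0.31 (SE), from placebo 1, without which it was -0.04.

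**Figure D4:**
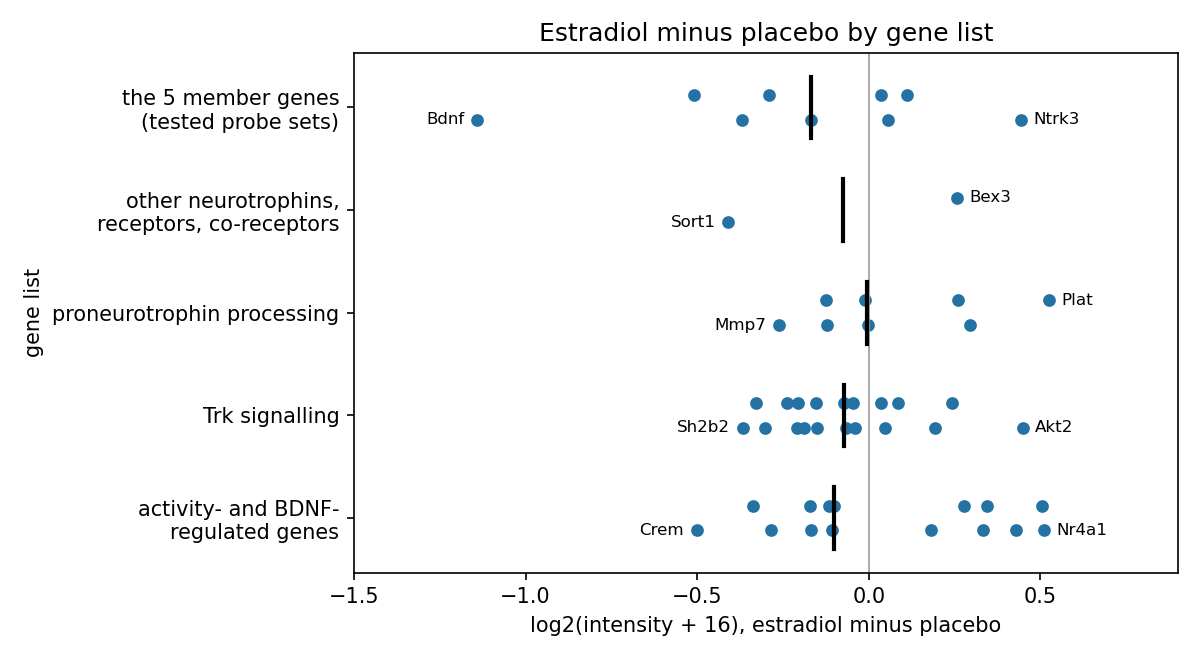
Estradiol minus placebo on the log2(intensity + 16) scale (horizontal axis) for the tested probe sets of the 5 members and for the genes of 4 pathway lists (vertical axis), 1 point per probe set or gene, with a black bar at the median. The medians lie between -0.17 and -0.01, and the lowest and highest gene of each list are named.

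The probe sets of other genes whose values over the 4 arrays lay closest to each member were found by the root mean square difference of centred log2 values. For each member gene its tested probe set of widest range was used, and between 4323 and 4326 probe sets were compared. For Bdnf S76799_at these were Pde4b, a cyclic AMP phosphodiesterase gene, at a distance of 0.05, and the globin gene Hbb at 0.13. Pde4b gave 20.5 and 53.4 under estradiol against 99.5 and 90.0 under placebo. For Ntf3 they were Cox7b and Scn3a, at 0.01 each, for Ntrk2 Wdfy3 and Rab6a, also at 0.01 each, and for Ntrk3 Isl1 and Kcnj11, at 0.05 each. For Ngfr U25650_f_at they were Psmb5, a proteasome subunit gene, at 0.02 and the phosphatase inhibitor gene Ppp1r1a at 0.02. With 4 arrays these distances are descriptions.

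Markers of other cells and regions also differed between arrays, and sums over a list weigh its brightest probe sets most. Blood markers were lower with estradiol in 4 of 4 tested genes, all without overlap. Over all genes tested, 30.1% had groups without overlap in either direction, and 14.3% of all tested probe sets were lower with estradiol without overlap. Blood marker sums were 1178 and 2594 against 3883 and 3499.7, of which Hbb made up 958.7 and 2310 against 3517 and 3055. The brightest array was placebo 1 for 2 of the 4 genes and placebo 2 for the other 2. Endothelium and mural cell markers were lower with estradiol in 5 of 5 tested genes, with a median of -0.46 and sums of 498.4 and 480.0 against 788.3 and 654.8. Groups did not overlap for 3 of the 5, beside the same 30.1% in either direction and 14.3% in the lower direction. Of the tested members, Bdnf S76799_at, Ntf3 M34643_at and Ngfr U25650_f_at were lower without overlap, and the other tested Bdnf probe sets overlapped.

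Choroid plexus and meninges markers, 7 of 8 listed tested, summed to 896.1 and 5272 with estradiol and to 9347 and 634.8 with placebo. Ttr made up 8034 of the sum on placebo 1. That array was the brightest for 5 of the 7 genes, for all 4 tested Bdnf probe sets and for both Ngfr probe sets. Ngfr X05137_at gave 214.8 there and 209.7 on estradiol 1. Ntrk2 M55291_at and Ntrk3 S60953_s_at were lowest on placebo 1. The share of all tested probe sets brightest or dimmest on that array was not counted. Estradiol 2 had a higher marker sum than estradiol 1. Bdnf S76799_at was also higher on estradiol 2, and the other tested Bdnf and both Ngfr probe sets were lower. Of the other choroid plexus and meninges markers, Kl was brightest on estradiol 1 and Col1a2 on estradiol 2. Oligodendrocyte markers were brightest on placebo 1 in 5 of 5 tested genes. Neuron markers, 6 of 9 tested and 3 of them below 0, summed to 6291 and 6706 against 5487 and 8013, and 4 of the 6 were dimmest on placebo 1.

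Striatum markers were higher with estradiol in 6 of 7 tested genes, with a median of 0.81 and sums of 1648 and 1926 against 799.8 and 1028, although the tissue is labelled cortex. Groups did not overlap for 4 of the 7, beside 30.1% of all genes tested. Tac1 gave 380.6 and 408.4 against 108.3 and 116, while Rgs9 was above background on estradiol 2 only. Adora2a, at -0.03, was the 1 gene below 0, and Drd2 was under the filter. Of the excitatory cortical markers, 2 were tested and both had lower values with estradiol, with a median of -0.33. Nrgn gave 4210.0 and 3854.5 under estradiol against 4721 and 5561 under placebo, without overlap, a log2 difference of -0.35. Neurod2 gave 78.3 and 46.9 against 123.6 and 49.0, with overlap, a log2 difference of -0.31. Slc17a7 and Neurod1 were under the filter. The medians of 6 tested astrocyte markers and 4 of microglia and macrophages were -0.10 and -0.09. No gene of these lists passed the adjusted threshold in limma, no tested marker was at 0 on any array, and the part of these differences in the members' values was not tested.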

How the data were processed

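Cortical RNA of 4 pools was measured on Affymetrix RG-U34A arrays. The deposited values are linear intensities, 1 for each probe set on each array. The authors scaled the arrays to a common level, since a scaling factor is named in the series text and the means after trimming 2% at each end lie close together, between 150.18 and 150.20. The program that summarised the probes is not stated in the labels. Of 8799 rows, 59 controls were left out. Of the others, 7006 had 1 symbol, 308 several and 1426 none. None of those with several held a member, and identifiers of 6994 were found in a RefSeq table (GRCr8), which changed 0 symbols.

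Medians of the arrays differed by at most 0.072 (log2), and 58.9 to 64.6% of probe sets exceeded the brightest foreign control. The small number of arrays limits the precision. Intensities were used as log2(value + 16), an offset that understates changes of dim probe sets. Probe sets with a mean under the 40th percentile (37.5) were left out, and 5244 were tested with limma 3.58.1 in R 4.3.3 (lmFit, eBayes with intensity trend, 2 residual degrees of freedom), two-sided, at a Benjamini-Hochberg adjusted p below 0.05. The fit was run on simulated data with planted changes larger than any member difference, equal noise for all probe sets and no intensity filter. That run does not show how well differences of the size reported here are found. Tables and plots used Python 3.11.15, pandas 2.3.3 and matplotlib 3.10.9.

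Members and lists were chosen with earlier results of these data known. Named genes were all members, the highest and lowest of each pathway list, and the 2 probe sets most like each member. Other genes were named after their values were seen. As alternatives, the offset was set to 1 or 64 and the filter to none or the 60th percentile; others were median centring, quantile normalisation, no intensity trend, the pool number as a block, the mean of a gene's probe sets for the lists, and each array left out.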

Additional observations from a re-analysis of the deposited data

How the results depend on the processing

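No member and no other probe set was called in limma under any of the 12 alternatives, and the count was 0 in each. At an unadjusted p below 0.05, 91 probe sets were higher and 70 lower with all arrays as deposited, against 71 and 90 after median centring. No member, named or most-like gene changed sign with another offset, filter, scaling or variance prior where it was tested. The filter at the 60th percentile removed Bdnf D10938exon_s_at, S76799_at and rc_AI030286_s_at.

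With 1 array left out, the lone pool of a group was assumed to vary like the other group's pools, and sign changes came with these ranges: Bdnf D10938exon_s_at -1.18 to 0.17, S76758_i_at -0.68 to 0.10 and rc_AI030286_s_at -0.53 to 0.75, Ntrk2 M55291_at -0.14 to 0.26, Ntrk3 S60953_s_at -0.12 to 1.01 and Ngfr X05137_at -0.13 to 0.20. Bex3 ran from -0.00052 to 0.52, Plat from -0.15 to 1.20, Nr4a1 from -0.69 to 1.71, Wdfy3 from -0.15 to 0.24, Rab6a from -0.14 to 0.29, Isl1 from -0.13 to 0.89 and Kcnj11 from -0.19 to 0.92.

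The list medians moved by more than their spread between pools in a few settings, and the cause was not tested. With the filter at the 60th percentile the median was 0.26 for other neurotrophins and receptors, where 1 gene was left, and 0.12 for precursor cutting. That of Trk signalling was -0.11 after median centring and -0.12 when all tested probe sets of a gene were averaged. With 1 array left out, it lay between -0.13 (without placebo 2) and -0.0057 (without estradiol 2) for Trk signalling, and between -0.031 and 0.12 for precursor cutting. It lay between -0.23 and 0.079 for other neurotrophins and receptors and between -0.55 and 0.59 for activity- and BDNF-regulated genes.

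With the pool number of the labels as a block (replicate block), 0 probe sets and 0 members were called, and 123 were higher and 87 lower at an unadjusted p below 0.05. The deviations of same-numbered pools correlated at 0.0363 over the tested probe sets. No label says whether same-numbered pools share more than a number.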
